A study of Arabidopsis thaliana with 6 samples.

Results

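SAUR genes, short for small auxin up RNA, form a large plant gene family, and the platform annotation allowed 3 of its members to be read on these arrays. They were taken as the probe sets that the annotation pairs with exactly 1 gene whose locus is on a list of 60 SAUR loci. The members found were SAUR10 (AT2G18010), SAUR57 (AT3G53250) and SAUR58 (AT1G43040), with 1 probe set each out of 22746 tested. The other 57 loci, among them the well-studied genes SAUR15 (AT4G38850), SAUR36 (AT2G45210) and SAUR63 (AT1G29440), had no such probe set and were not analysed here. All results below therefore concern 3 genes and not the SAUR family.

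Many SAUR genes are switched on within minutes of an auxin pulse and encode short proteins that are made and broken down quickly. In the best studied cases the protein binds and inhibits type 2C protein phosphatases at the plasma membrane, which keeps proton pumps active, acidifies the cell wall and lets the cell expand. SAUR genes also respond to brassinosteroid, gibberellin, light and temperature, and many are most active in elongating tissue of seedlings. SAUR10 is known as a target of the MADS-box factor FRUITFULL and takes part in stem elongation and branch angle. No separate role is given here for SAUR57 and SAUR58. Many SAUR genes lie in tandem arrays, and 23 of the 60 listed loci have another SAUR gene as the next locus in the RefSeq gene table. SAUR10, SAUR57 and SAUR58 do not, since 0 of these 3 loci have one.

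The study compared Arabidopsis thaliana of the accession Wassilevskija (WS) as wild type with the atr8 mutant in the same accession, 3 Affymetrix ATH1 arrays per genotype. AtR8 is a long non-coding RNA, and the series asked about its part in defence. Both genotypes had the same treatment: whole seedlings 10 days after germination spent 6 h in air-purged water, a low-oxygen stress, and 22 h on agar medium to recover. An untreated group was not analysed here, and the labels do not say which allele or how many lines the mutant stands for. The design text calls the arrays biological replicates. No probe set was named for AtR8, so the labels were not checked against the mutated gene. As a check of the tissue, chosen after values were seen, the leaf gene RCA, which encodes Rubisco activase, read 30822 to 33207 in the wild type and 16016 to 21655 in the mutant. The root hair gene EXPA7 read 203 to 313 in the wild type and 77.2 to 181 in the mutant, so both markers were present and both lay lower on every mutant array. The groups did not overlap in 22.1% of all tested probe sets either, and RCA did not pass the test used below (limma adjusted p = 0.168). These markers therefore do not show a difference in tissue make-up between the genotypes. The part of these marker levels in the results below was not tested. Whole seedlings hold many cell types, and in such samples fewer cells of a type and less RNA per cell cannot be told apart.

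Control probe sets set mutant replicates 2 and 3 apart from the other 4 arrays. For actin, the 3′ probe set read 28.9 and 19.6 times the 5′ probe set there, and 2.13 to 2.66 times elsewhere. For GAPDH the ratios were smaller, 1.75 and 1.70 there and 0.79 to 1.00 elsewhere. Ubiquitin gave 2.10 and 2.27 there and 0.72 to 1.02 elsewhere. The spike-ins dap, thr, lys and phe also had their highest ratios there. The SAUR values on these arrays are given below with that limit, and the comparison is given with and without both of them. The part of this difference in the SAUR values was not tested.

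The 3 SAUR probe sets were dim on every array, and none of them passed the test between the genotypes. Values are the authors' intensities on a linear scale, and the median probe set stood at 193 on each array. The 18 SAUR values, 1 per gene and array, ran from 3.29 to 117, so every one lay below that median. Of the 18, 9 were under 16, where 15.1% of all tested probe sets lay on each array. These 9 were spread over both genotypes, 4 of 9 values in the wild type and 5 of 9 in the mutant. By mean intensity over all arrays SAUR58 stood at percentile 11.4 of the tested probe sets, SAUR10 at 14.8 and SAUR57 at 24.0.

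SAUR10 read 117, 4.70 and 5.21 in wild-type replicates 1, 2 and 3, and 4.40, 7.20 and 72.2 in mutant replicates 1, 2 and 3. A single array of each genotype stood high and the other 4 arrays lay close together at the bottom of the scale, so the groups overlapped. The high mutant array, replicate 3, was an array with a high 3′ to 5′ ratio in the controls. The mean was 42.2 ± 64.5 (SD, n = 3) in the wild type and 27.9 ± 38.3 (SD, n = 3) in the mutant. The log2 difference of intensity + 16, mutant minus wild type, was −0.16 ± 0.93 (SE, adjusted p = 0.955 by limma over all probe sets). Its 95% interval ran from 5.37-fold lower to 4.30-fold higher in the mutant, as folds of intensity + 16. With 1 added in place of 16 the interval ran from 17.6-fold lower to 14.9-fold higher. With 64 added it ran from 2.21-fold lower to 1.86-fold higher, so the size of change that these arrays could show depends on the constant added.

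SAUR57 was the brightest of the 3 genes and read 62.9, 76.5 and 4.46 in the wild type and 88.3, 3.29 and 74.7 in the mutant. In each genotype a pair of arrays lay in a narrow range and the remaining array was near the lowest intensities measured. The low arrays were wild-type replicate 3 and mutant replicate 2, of which the mutant array had a high 3′ to 5′ ratio in the controls. Means were 48.0 ± 38.3 and 55.4 ± 45.7 (SD, n = 3 each), and the groups overlapped. The log2 difference was 0.10 ± 0.87 (SE, limma adjusted p = 0.971), with a 95% interval from 4.07-fold lower to 4.65-fold higher in the mutant. With 1 added the interval ran from 16.6-fold lower to 17.4-fold higher, and with 64 added from 1.79-fold lower to 1.98-fold higher.

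SAUR58 read 33.1, 4.23 and 36.4 in the wild type and 9.06, 88.1 and 9.64 in the mutant. Here the wild type had 1 low array and the mutant had 1 high array, which was mutant replicate 2, an array with a high 3′ to 5′ ratio in the controls. Means were 24.6 ± 17.7 and 35.6 ± 45.5 (SD, n = 3 each), and the groups overlapped. The log2 difference was 0.12 ± 0.68 (SE, limma adjusted p = 0.955), with a 95% interval from 2.93-fold lower to 3.46-fold higher in the mutant. With 1 added it ran from 7.25-fold lower to 9.20-fold higher, and with 64 added from 1.58-fold lower to 1.82-fold higher.

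**Figure D1:**
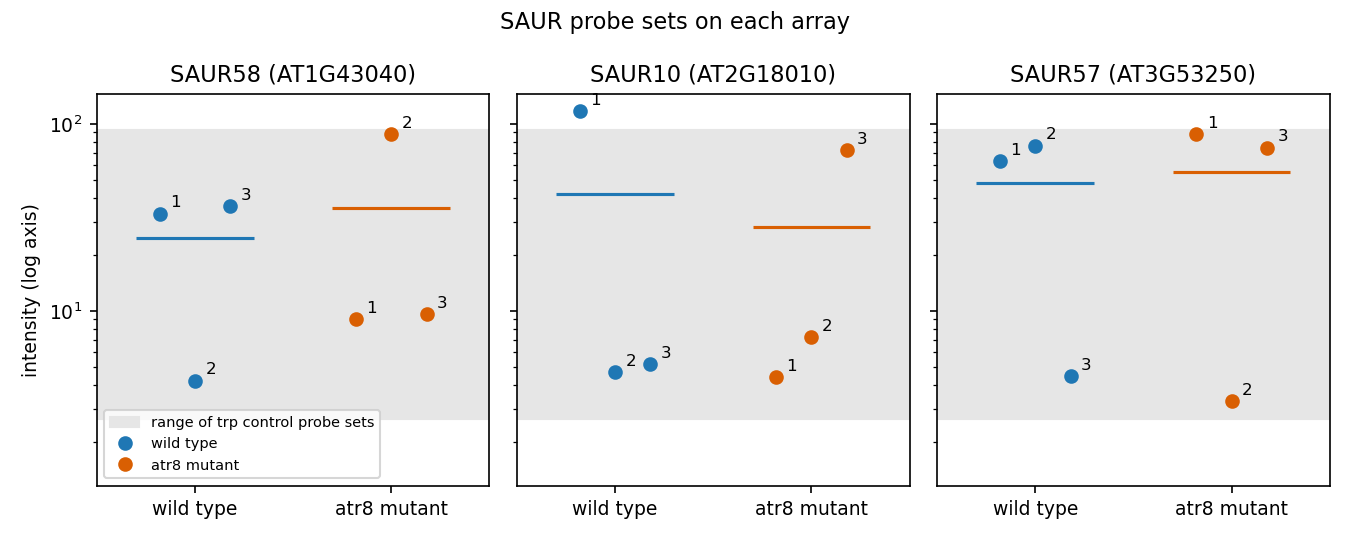
Intensity (log axis) of the SAUR58, SAUR10 and SAUR57 probe sets on each array, with replicate numbers beside the points, a line at each group's arithmetic mean, and grey shading over the range of the trp control probe sets, 2.65 to 93.0. In all 3 genes the wild-type and mutant points overlap, and SAUR10 in wild-type replicate 1, at 117, lies above the shading, whose top rests on 1 trp value. The other 17 trp values end at 47.2, and 7 SAUR points lie above that level.

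By limma 0 of the 3 SAUR probe sets passed an adjusted p of 0.05, where 0.919% of all 22746 tested probe sets did. At an unadjusted p under 0.05 the count was also 0 of 3, against 14.0% of all tested probe sets. In 0 of the 3 genes did the mutant arrays lie wholly above or below the wild-type arrays, against 22.1% of all tested probe sets. With only 3 genes a count of 0 cannot be told apart from these shares. SAUR57 and SAUR58 had higher estimates in the mutant and SAUR10 a lower one. The median log2 difference of the 3 genes was 0.10, beside −0.01 over all tested probe sets.

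The array with the highest value differed from gene to gene. Wild-type replicate 1 gave the highest value of SAUR10, mutant replicate 1 that of SAUR57 and mutant replicate 2 that of SAUR58. Mutant replicate 2 gave the highest value of SAUR58 and the lowest of SAUR57. The highest array exceeded the lowest by 26.5-fold in SAUR10, 26.8-fold in SAUR57 and 20.8-fold in SAUR58, all on arrays that the authors had already brought to 1 common distribution.

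The control probe sets for trp, a bacterial gene used as a control on Affymetrix arrays, give a scale for such values. Whether trp RNA was added to these samples is not given in the sources used here. The 3 trp probe sets read 2.65 to 93.0 over the 6 arrays, with a median of 11.9, and the 18 SAUR values had a median of 21.4. Of the SAUR values 17 lay within the trp range and 1 above it, SAUR10 in wild-type replicate 1. The top of that range rests on 1 trp value, also from wild-type replicate 1. The other 17 trp values ended at 47.2, and 7 of the SAUR values lay above that, 1 of SAUR58, 2 of SAUR10 and 4 of SAUR57. The deposited table has no detection call, so whether any SAUR transcript was above background on a given array is not known.

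The spread within genotypes was wide in SAUR10 and SAUR57 even for probe sets of their brightness. On the log2 scale of intensity + 16 the residual SD was 1.37 for SAUR10, 1.28 for SAUR57 and 0.99 for SAUR58, against a median of 0.42 over all tested probe sets. Between the mean intensities of SAUR58 and SAUR57, 30.1 and 51.7, lay 2850 tested probe sets with a median residual SD of 1.00. SAUR58 stood at percentile 49.0 of these, SAUR57 at 91.6 and SAUR10 at 97.3. As SAUR58 and SAUR57 are the edges of this range, SAUR57 was set against dimmer probe sets and SAUR58 against brighter ones. Of the 2850 probe sets limma called 47, or 1.65%, and the smallest called difference was 1.48 on the log2 scale.

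**Figure D2:**
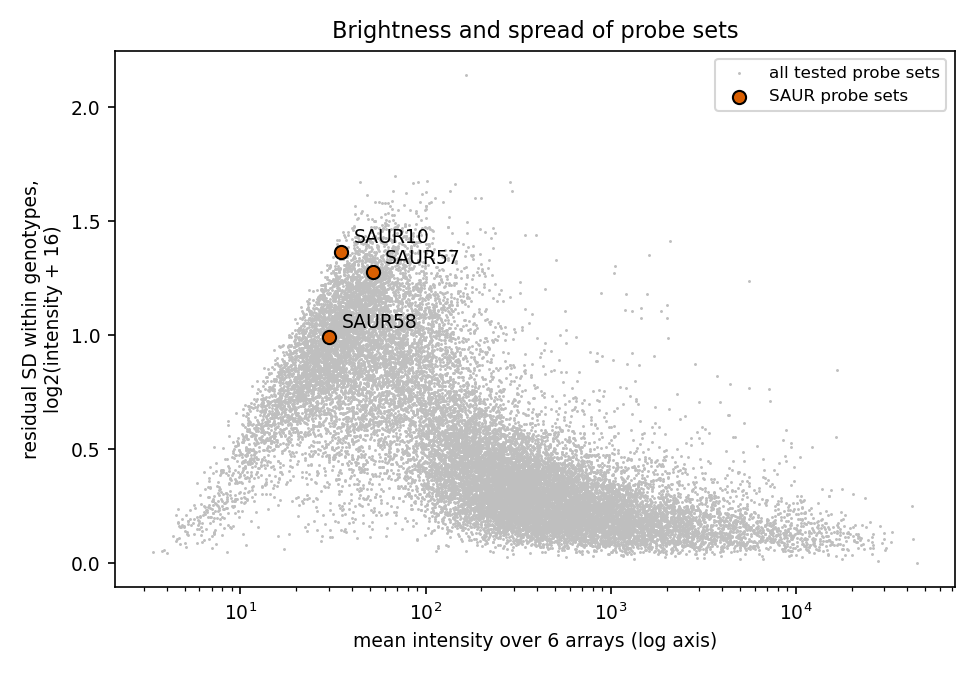
Mean intensity over the 6 arrays (log axis) against the residual SD within genotypes of log2(intensity + 16) for all tested probe sets (grey) and the SAUR probe sets (orange). The SAUR points lie on the dim left side, with SAUR10 at 1.37 and SAUR57 at 1.28 near the top of the cloud and SAUR58 at 0.99.

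The direction of each SAUR difference turned on single arrays. SAUR10 stood at 0.73 without wild-type replicate 1 and at −0.83 without mutant replicate 3, and those are the arrays on which it stood high. SAUR57 stood at −0.59 without wild-type replicate 3 and at 0.87 without mutant replicate 2, which are the arrays on which it stood low. SAUR58 stood at −0.56 without mutant replicate 2 and at 0.47 without mutant replicate 1. Across the 6 ways of leaving out 1 array, the estimate was higher in the mutant in 3 for SAUR10, 3 for SAUR57 and 4 for SAUR58. With both mutant replicates 2 and 3 left out, so that 1 mutant array remained, whose variation is assumed to be that of the wild type, SAUR10 stood at −0.93, SAUR57 at 0.97 and SAUR58 at −0.58. In these settings adjusted p-values by limma stayed between 0.708 and 0.974.

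**Figure D3:**
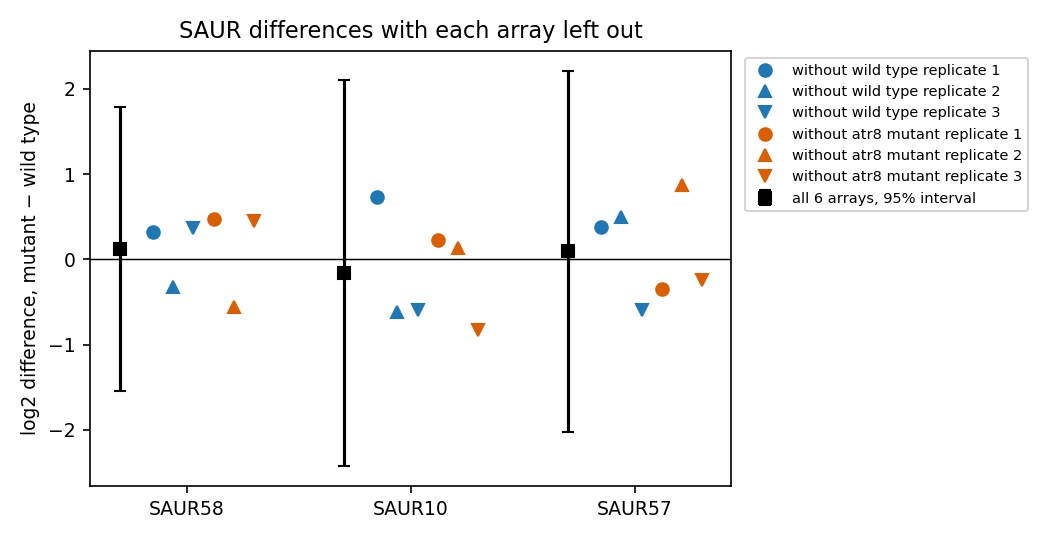
Log2 difference of intensity + 16, mutant minus wild type, for SAUR58, SAUR10 and SAUR57 over all 6 arrays (black squares with 95% intervals) and with each array left out in turn (coloured marks). In each gene the coloured marks lie on both sides of 0, from −0.83 to 0.73 in SAUR10.

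Other auxin genes were taken from 9 lists by locus, from auxin receptors to growth regulators that act on SAUR genes. Of 126 listed genes 20 had a probe set naming them alone, and 5 of the lists had 0, namely receptors, auxin response factors, transport, plasma membrane proton ATPases and upstream growth regulators. By limma 0 of the 20 passed an adjusted p of 0.05 in either direction, with a median log2 difference of 0.12. At an unadjusted p under 0.05 there were 5 of 20, and in 5 of 20 the groups did not overlap. The same shares over all tested probe sets were the 14.0% and 22.1% given for the SAUR genes, and 0.919% at the adjusted threshold. A count of 0 of 20 cannot be told apart from that last share.

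Unlike the SAUR genes, several of these were read at moderate intensities. GH3.5, an enzyme that joins auxin to amino acids, read 135, 214 and 191 in the wild type and 290, 449 and 326 in the mutant, with all mutant arrays above the wild type. Its log2 difference was 0.92 ± 0.27 (SE, limma adjusted p = 0.225). GH3.3, of the same family, stood at 0.66 ± 0.33 (adjusted p = 0.438), and of the 5 measured GH3 genes 3 had higher and 2 lower estimates. YUC2, which makes auxin from indole-3-pyruvate, read 155, 114 and 143 in the wild type and 105, 63.7 and 90.0 in the mutant, with no overlap and a log2 difference of −0.60 ± 0.24 (adjusted p = 0.354). YUC4, of the same family, stood at 0.79 ± 0.71 (limma adjusted p = 0.657), and 3 of 4 measured synthesis genes had lower estimates. YUC4 was dim, with a mean intensity of 22.8 over all arrays, and only mutant replicate 2 stood high, at 107. The synthesis genes YUC6 and YUC11 were dim as well, with mean intensities of 44.8 and 35.2. Of the 7 measured Aux/IAA genes, a family of repressors of auxin response, 4 had higher and 3 lower estimates. IAA34 stood at 1.18 ± 0.39 (adjusted p = 0.275) and IAA33 at −1.41 ± 0.54 (adjusted p = 0.336), and both were dim like the SAUR genes, with mean intensities of 24.5 and 43.9 over all arrays. The phosphatase list held 4 measured loci that the gene table leaves without a name, all with higher estimates. AT3G55050 stood at 0.62 ± 0.29 and AT3G12620 at 0.25 ± 0.19 (limma adjusted p = 0.405 and 0.606). AT3G51370 stood at 0.13 ± 0.19 and AT3G17090 at 0.036 ± 0.28 (limma adjusted p = 0.796 and 0.966). The 95% intervals of all 4 loci included 0. With mutant replicates 2 and 3 left out several of these estimates shrank, to −0.33 in YUC2, 0.033 in YUC4, 0.67 in GH3.5 and 0.068 in AT3G55050. On the same arrays GH3.3 stood at 0.78, AT3G12620 at 0.34, IAA34 at 1.58 and IAA33 at −1.95. Leaving out 1 array moved AT3G12620 to 0.15 (without wild-type replicate 2), GH3.3 to 0.42 (without wild-type replicate 3) and YUC4 to −0.052 (without mutant replicate 2).

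**Figure D4:**
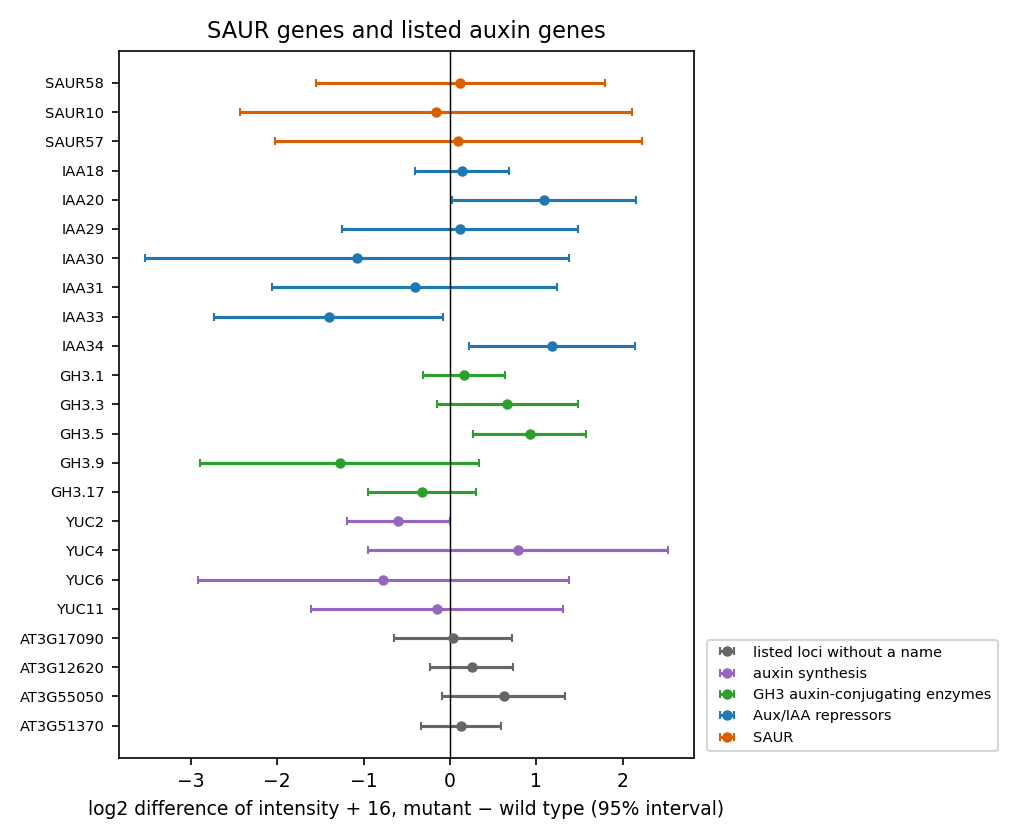
Log2 differences of intensity + 16, mutant minus wild type, with 95% intervals, not adjusted for the number of genes, for the 3 SAUR genes (orange) and the 20 measured genes of the auxin lists (other colours). The SAUR intervals all cross 0 and are among the wide ones, reaching from −2.42 to 2.10 in SAUR10.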

How the data were processed

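The deposited intensities, 1 per probe set and array on a linear scale from 1 to 47944, held the same sorted values on all 6 arrays, so the authors had quantile normalized them. Biotinylated cRNA came from total RNA, per the labels. How probes were summarized, and with what background correction, is not given in the sources used here. Arrays limit the precision by their number.

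Of 22810 probe sets 64 controls were left out. The annotation listed 13513 probe sets with 1 gene, 503 with several and left 8730 tested ones unlisted, which are unnamed here. The SAUR probe sets were matched by locus, because the gene IDs beside them were not in the RefSeq gene table (TAIR10.1), which gave the SAUR names.

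Values were taken as log2(intensity + 16), which understates changes of dim genes, and fitted on genotype alone by limma 3.58.1 (R 4.3.3), with Benjamini-Hochberg adjustment over all 22746 probe sets and a threshold of 0.05. The fit was tested on simulated data with independent normal noise. Such noise lacks jumps of single arrays like those of the SAUR genes, so that test does not cover them. Members, lists and alternatives were chosen with earlier results of these data known. The rule named every measured member and, from each list, genes past the threshold or otherwise the 2 with the smallest p. The phosphatase list (9 loci) is given by locus only.

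Alternatives were a replicate block, median centring, cyclic loess, array weights, a robust prior with intensity trend, removal of the dimmest 30% of probe sets, 1 or 64 added, and arrays left out.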

Additional observations from a re-analysis of the deposited data

Results flagged for a closer look

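Among the control probe sets, which took no part in the comparison, that for 5S ribosomal RNA was at least 2-fold above the highest wild-type array on all 3 mutant arrays. Mutant replicate 1 gave 238, replicate 2 gave 535 and replicate 3 gave 352, while the wild-type arrays lay between 76.9 and 100.3. The higher values, of replicates 2 and 3, came from the arrays with high 3′ to 5′ ratios in the controls. The part of that in the 5S values was not tested.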

How the results depend on the processing

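In 14 alternatives that gave a value 0 SAUR probe sets were called by limma, and 0 had an unadjusted p under 0.05. All 3 are among the dimmest 30% of probe sets, so that filter left none of them to test. Adjusted p-values over the 14 ran from 0.714 to 0.982 for SAUR10, 0.708 to 0.996 for SAUR57 and 0.720 to 0.966 for SAUR58. The direction changed with array weights for SAUR10 (0.40) and without mutant replicates 2 and 3 for SAUR58 (−0.58). With 1 array left out the log2 difference ran from −0.83 to 0.73 in SAUR10, −0.59 to 0.87 in SAUR57, −0.56 to 0.47 in SAUR58 and −0.052 to 1.25 in YUC4. Of the 20 listed auxin genes 0 were called in any alternative. Several settings called 0 of all probe sets, so there the counts of 0 for the SAUR and auxin genes were fixed in advance. The count over all probe sets, 209, was 371 without the dimmest 30%, 1459 with a trend and robust prior, 99 with 1 added and 336 with 64 added. With 1 array left out it was 314 without mutant replicate 1 and 0 in each other case. With the replicate block it was 0 (2769 at an unadjusted p under 0.05). The labels share replicate numbers but name nothing that the numbers mark. Deviations of same-numbered arrays correlated at 0.0141, 0.0115 and 0.0045 across probe sets, and each array correlated best with its own number. These correlations were very small, so they do not settle whether the numbers mark pairs. Causes of these changes were not tested.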
